A study of Homo sapiens with 8 samples.

Results

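The major histocompatibility complex (MHC), the gene-dense stretch of the short arm of chromosome 6 that carries the HLA genes, was followed through prolonged culture of human embryonic stem cells. Its members were CpGs at hg19 chr6:29650000-33400000, leaving out chr6:31130000-31142000, that had at least 5 reads in every library, and tiles of 1000 bases with at least 3 such CpGs. There were 2684 such CpGs of 886088 on the autosomes, and 347 tiles of 105630. By position, 1107 CpGs and 137 tiles belonged to class I (chr6:29650000-31480000), 966 CpGs and 121 tiles to class III (chr6:31480000-32190000), and 611 CpGs and 89 tiles to class II (chr6:32190000-33400000).

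All 8 libraries came from HUES64, an established human embryonic stem cell line, with knockouts of DNMT3A and DNMT3B. They were made at passages 6, 7, 8, 11, 13, 17, 27 and 28, with 1 library at each, by reduced representation bisulfite sequencing (RRBS), which reads methylation at CpGs in fragments cut at CpG-containing sites. No cells with both enzymes were analysed here, and nothing in the labels tells whether a single clone or culture was followed. Late values are means over passages 27 and 28, and early values means over passages 6 to 8. A p over passages measures the scatter of these libraries about a trend, which may be technical. The files hold methylation only, so markers of the cell type were not checked.

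DNMT3A and DNMT3B place methyl groups on CpGs that carry none, whereas DNMT1 copies existing methylation to the newly made strand when DNA is replicated. The class I and class II ends of the MHC hold genes for the molecules that show peptides to T cells, and for the machinery that cuts and transports those peptides. Class III lies between them and holds complement, TNF family, heat shock and many housekeeping genes. The HLA genes are among the most variable of the human genome, and human class III carries a tandem module with the complement C4 and steroid 21-hydroxylase genes, whose copies are nearly identical.

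Summed over CpGs, the libraries held 19898423 reads (passage 11) to 44599588 (passage 6). Kept MHC CpGs had a median of 24 reads at passage 6 and 11 to 15 elsewhere, against 23 and 10 to 15 over the other autosomal CpGs. Of the 8609 CpGs that any file lists in the region, 31.2% were kept. Passage 6 was thus the deepest library in the MHC as elsewhere.

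Promoters of the region are shown first, as the part of it with known gene starts. No hg19 annotation was used here. RefSeq promoters (GRCh38.p14, 250 bases before to 50 after a gene start) were instead placed on the hg19 CpG positions of the files by the spacing of their CpGs. This placed 58 promoters of 49 genes, and 44 promoters of 39 genes had at least 3 kept CpGs. A set of 4 is printed 5′ to 3′ in gene orientation, with each kept CpG in capitals. They are the 3 whose level was above 5% over passages 6 to 8 (HLA-DPA1, PHF1 and TRIM39), and TAP2, which stands for the unmethylated majority. HLA-DPA1 encodes the alpha chain of a class II molecule, and its window (GRCh38 chr6:33080699-33080998, minus strand) lies wholly within HLA-DPB1, its beta chain partner. TAP2 (chr6:32838690-32838989, minus strand) encodes a subunit of the peptide transporter. PHF1 (chr6:33410764-33411063, plus strand) encodes a partner of the Polycomb complex PRC2, and the window lies inside the gene at a downstream start. TRIM39 (chr6:30326677-30326976, plus strand) encodes a ubiquitin ligase, and its window lies within the long non-coding gene HCG18.

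HLA-DPA1: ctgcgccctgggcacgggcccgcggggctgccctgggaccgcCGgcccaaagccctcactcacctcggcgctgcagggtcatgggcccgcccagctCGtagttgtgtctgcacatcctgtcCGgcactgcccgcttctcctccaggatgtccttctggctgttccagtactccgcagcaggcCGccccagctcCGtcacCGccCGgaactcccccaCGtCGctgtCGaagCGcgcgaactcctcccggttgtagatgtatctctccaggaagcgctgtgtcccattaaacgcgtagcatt
TAP2: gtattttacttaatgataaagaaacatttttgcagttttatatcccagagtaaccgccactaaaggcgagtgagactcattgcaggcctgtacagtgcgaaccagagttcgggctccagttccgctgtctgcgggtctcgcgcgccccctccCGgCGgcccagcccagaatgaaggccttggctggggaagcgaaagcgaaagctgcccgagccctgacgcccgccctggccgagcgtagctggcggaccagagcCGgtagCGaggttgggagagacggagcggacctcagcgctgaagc
PHF1: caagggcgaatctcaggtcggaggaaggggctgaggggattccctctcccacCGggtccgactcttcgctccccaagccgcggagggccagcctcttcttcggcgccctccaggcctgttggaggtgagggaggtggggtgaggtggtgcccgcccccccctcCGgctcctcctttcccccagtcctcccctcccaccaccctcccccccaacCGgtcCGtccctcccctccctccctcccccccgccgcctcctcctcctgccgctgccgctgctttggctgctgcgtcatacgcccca
TRIM39: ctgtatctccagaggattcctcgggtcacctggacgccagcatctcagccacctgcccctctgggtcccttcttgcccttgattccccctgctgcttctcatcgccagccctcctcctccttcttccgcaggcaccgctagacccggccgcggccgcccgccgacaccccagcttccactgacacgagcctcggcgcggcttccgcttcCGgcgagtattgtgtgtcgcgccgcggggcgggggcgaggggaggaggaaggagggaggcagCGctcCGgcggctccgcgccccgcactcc

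Of the 44 promoters, 41 were under 5% at passages 6 to 8, with a median level of 0% at passages 27 and 28 and of 0% at passages 6 to 8. None of these 41 exceeded 3.96% in any library, and their highest late mean was 3.50%, at PRRC2A. This group included TAP2, the complement gene C2, the Polycomb component RING1 and the nuclear receptor RXRB. TAP2 was at 0% in all 8 libraries over 4 CpGs, with at least 38 reads in each, where 0 methylated reads allow a level of up to 7.89% (3 reads, counting error only). C2 was likewise at 0% in every library over 5 CpGs, with at least 45 reads, which allow up to 6.67% in a library. The C2 window also touches the gene EHMT2, so its level cannot be assigned to C2 alone.

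The window placed for HLA-DPA1 (11 kept CpGs, at least 149 reads a library) had 11.9, 14.7, 25.1, 8.72, 8.15, 10.1, 11.2 and 7.88% methylation at passages 6, 7, 8, 11, 13, 17, 27 and 28. It lies wholly within HLA-DPB1, and whether it acts as a promoter was not tested. The late mean was 9.52%, against 17.2% ± 6.99 (SD, n = 3) at passages 6 to 8. Passage 8 stood highest, and passage 27 lay close to passage 6. The tile that holds it (chr6:33048001-33049000) changed by -6.12 points between passages 6 and 28 in a quasi-binomial fit on passage, which did not pass the test (adjusted p = 0.164 with limma's moderated dispersion).

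PHF1 (4 kept CpGs, at least 43 reads) had 15.96, 18.6, 14.3, 15.7, 25.6, 14.9, 18.2 and 14.9% at the same passages. Its late mean of 16.5% and its early mean of 16.3% ± 2.18 (SD, n = 3) differed by less than the spread of the early libraries. TRIM39 (3 kept CpGs, at least 31 reads) had 13.3, 13.2, 9.68, 2.56, 4.44, 10.2, 2.56 and 0% at these passages. Both late libraries lay under all 3 early ones, with a mean of 1.28% against 12.1% ± 2.06 (SD, n = 3), and its tile fell by 10.9 fitted points (adjusted p = 0.0453, limma's moderated dispersion).

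The promoters placed give an uneven picture of the immune genes. Of 8 class I molecule genes listed, 1 promoter was placed and none had 3 kept CpGs. Of 11 class II molecule genes, HLA-DPA1 was the 1 measured, and only by a window that lies wholly within HLA-DPB1. TAP2 was the 1 measured of 5 peptide processing genes. C2 was the 1 measured of 4 complement genes, and only by a window that also touches EHMT2. None of the 3 TNF family and 3 heat shock genes was placed. RING1 and RXRB were measured of 7 chromatin and transcription genes, and 8 were measured of the 18 remaining genes, among them BAG6, DDR1, MSH5 and TRIM26. Apart from HLA-DPA1 and TRIM39, each gene measured on these lists was under 5% at passages 6 to 8.

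Beyond the promoters, other tiles were unmethylated too. In the region 133 tiles started under 5%, and the highest late mean among them was 3.87%. Of the 42 tiles with a placed promoter, 36 started under 5%, against 97 of the 305 tiles without one. Among the 12 promoter tiles with enough reads of both states for a test, 3 were called as losses, against 72 of the 220 other MHC tiles tested and 34% of the autosomal tiles tested. A tile counts as a promoter tile here if it overlaps any part of a placed window, so a call need not come from promoter CpGs. The promoter of HCP5, a long non-coding gene of class I, touches a tile at chr6:31431001-31432000 that had 0% at passages 27 and 28 against 13.4% ± 3.26 (SD, n = 3) at passages 6 to 8 (adjusted p = 0.00344, limma's moderated dispersion), although the 6 kept CpGs of the promoter were at 0% late and 0.758% early. Promoters of DXO, an enzyme that removes faulty RNA caps, and WHR1 touch a tile at chr6:31939001-31940000 that had 29.8% late against 54.7% ± 0.850 (SD, n = 3) early (adjusted p = 0.00463, limma's moderated dispersion), while the next tile, with 7 CpGs, was at 0% in every library. The 2 kept CpGs of each of these promoters lie in that next tile and were at 0% throughout. The remaining called tile was that of TRIM39, the only called tile of these whose kept CpGs were those of the promoter itself.

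Methylation fell across the MHC as a whole. Its mean CpG level was 35.6% at passage 6, followed by 35.4, 35.6, 33.97, 33.7, 32.7, 29.0 and 28.1% in passage order. The late mean of 28.6% lay below the early mean of 35.5% ± 0.147 (SD, n = 3) by far more than the early libraries differed. This gave -0.336 ± 0.0155 points for each passage (slope with SE, n = 8; r = -0.994, exact permutation p = 7.44e-05, adjusted p = 0.000186 over 5 trends; rho = -0.976, exact permutation p = 0.000397). Without passages 27 and 28, r was -0.977 (exact permutation p = 0.00417, n = 6). The other 883404 autosomal CpGs averaged 35.7% late and 44.4% ± 0.262 (SD, n = 3) early, so the MHC stood lower throughout and kept 80.4% of its early mean, against 80.5% elsewhere.

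**Figure D1:**
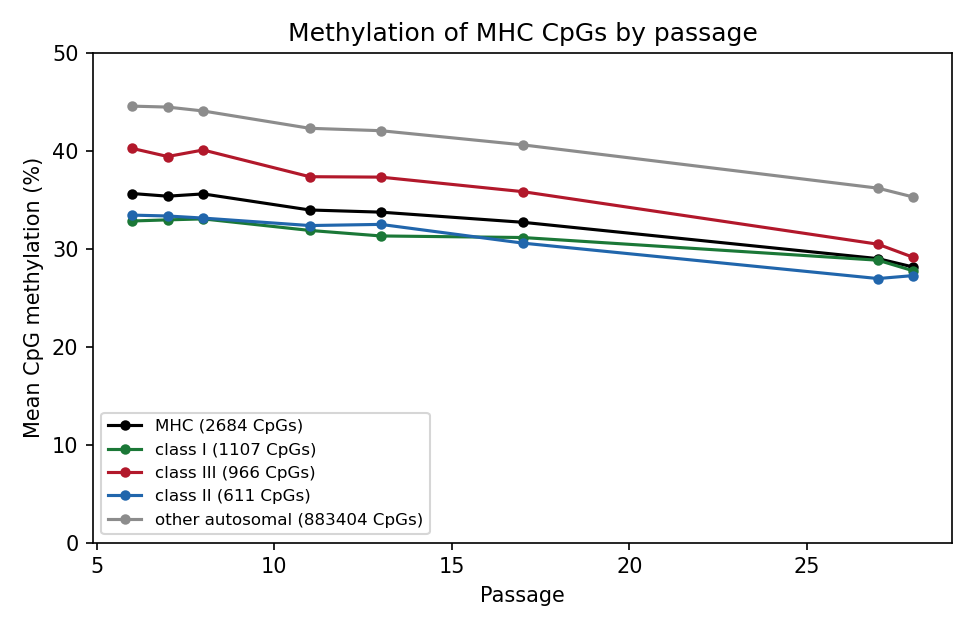
Mean CpG methylation in percent against passage, 1 point per library, for the MHC, its 3 classes and the other autosomal CpGs. Every line falls, class III from the highest MHC level and by the most points, and the MHC stays below the other autosomes in all 8 libraries.

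The 3 classes fell by different amounts. Class I had 32.8, 33.0, 33.1, 31.9, 31.3, 31.2, 28.8 and 27.8% at passages 6, 7, 8, 11, 13, 17, 27 and 28, a late mean of 28.3% against 33.0% ± 0.108 (SD, n = 3) early. Class III had 40.3, 39.4, 40.1, 37.4, 37.3, 35.8, 30.5 and 29.1%, a late mean of 29.8% against 39.9% ± 0.440 (SD, n = 3) early. Class II had 33.4, 33.4, 33.1, 32.38, 32.5, 30.6, 27.0 and 27.3%, a late mean of 27.1% against 33.3% ± 0.156 (SD, n = 3) early. Class III thus started well above the others and ended close to them. Slopes were -0.223 ± 0.0169, -0.487 ± 0.0263 and -0.305 ± 0.0184 points per passage for class I, III and II (SE, n = 8; r of -0.983, -0.991 and -0.989; rho of -0.905, -0.976 and -0.952), each r with an adjusted exact permutation p of at most 0.000298 and each rho with an exact permutation p of at most 0.00456. Without passages 27 and 28 the r were -0.937, -0.960 and -0.955 (exact permutation p of at most 0.00833, n = 6).

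CpGs at 80% or more became fewer in each class. They made up 19.97% of the MHC CpGs late and 28.2% ± 0.338 (SD, n = 3) early, with 21.2% and 27.2% in class I, 19.9% and 30.6% in class III, and 17.8% and 26.1% in class II. CpGs at 20% or less made up 62.6% of the MHC late and 55.8% ± 0.451 (SD, n = 3) early.

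How much a tile lost went with its starting level. The 16 MHC tiles that started at 20 to under 40% had 17.3% late against 27.4% ± 2.97 (SD, n = 3) early, where the other autosomal tiles of this start had 11.7% late and 30.1% early. The 24 MHC tiles that started at 40 to under 60% had 26.5% late against 50.6% ± 0.677 (SD, n = 3) early, and the 48 that started at 60 to under 80% had 52.4% late against 72.1% ± 0.644 (SD, n = 3) early. The 55 that started at 90% or more had 87.8% late against 94.1% ± 0.254 (SD, n = 3) early. In the other autosomal tiles of these 3 higher starts the late means were 26.0, 54.3 and 86.5%. At 60 to under 80% the 16 class III tiles had 42.0% late against 71.1% ± 0.366 (SD, n = 3) early. The 18 of class I had 58.6% late against 73.3% ± 1.44 (SD, n = 3) early. Small bins of class II departed from the other autosomal tiles too, in both directions. Its 6 tiles starting at 20 to under 40% had 24.4% late against 28.9% ± 4.96 (SD, n = 3) early. Its 4 tiles starting at 40 to under 60% had 17.7% late against 46.6% ± 2.44 (SD, n = 3) early. No single bin was tested.

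For this reason MHC tiles were next set against other autosomal tiles of equal start. Each of the 186 MHC tiles that started at 20% or more (mean of passages 6 to 8) was compared with the mean of the other autosomal tiles in its 5-point start bin, in each library. Because passages 6 to 8 set the start, the differences at these passages average near 0 by construction. The permutation test over all 8 libraries takes no account of this. The 186 tiles averaged 61.5% late and 75.1% ± 0.198 (SD, n = 3) early, where equal-start tiles averaged 60.7% late and 75.2% early. Observed minus expected was -0.422, -0.408, 0.614, 0.961, 0.708, 0.0799, 0.771 and 0.714 points at passages 6 to 28. Its trend of 0.0327 ± 0.0221 points for each passage (SE, n = 8; r = 0.517, exact permutation p = 0.173, adjusted p = 0.226 over 7 differences; rho = 0.643, exact permutation p = 0.0962) did not pass the test, and r was 0.389 without passages 27 and 28 (exact permutation p = 0.439, n = 6). Against the other tiles of chromosome 6 alone, of which fewer were called as losses, the difference was -0.0925 (exact permutation p = 0.00546, adjusted p = 0.0191, n = 8), so its direction depends on the tiles it is set against.

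Class III fell below its expectation, and the trends of class I and class II did not pass the test. In class III (72 tiles) observed minus expected was -0.219, -0.410, 1.28, -1.28, -1.45, -3.14, -3.42 and -2.45 points at passages 6 to 28, with all 5 libraries from passage 11 on below the 3 early ones. The 3 early libraries set the start level, so their mean near 0 is built in. The trend was -0.149 ± 0.0434 points for each passage (SE, n = 8; r = -0.814, exact permutation p = 0.0139, adjusted p = 0.0486; rho = -0.857, exact permutation p = 0.0107). In class I (70 tiles) the difference was -0.678, 0.114, -0.0449, 2.23, -0.132, 2.62, 4.36 and 1.93 points, with a slope of 0.157 ± 0.0515 that missed the threshold (SE, n = 8; r = 0.780, exact permutation p = 0.0221, adjusted p = 0.0516; rho = 0.667, exact permutation p = 0.0831). Class II (44 tiles) had -0.347, -1.24, 0.574, 2.60, 5.58, 1.31, 1.92 and 3.96 points, and its slope of 0.132 ± 0.0903 did not pass (SE, n = 8; r = 0.512, exact permutation p = 0.194, adjusted p = 0.226; rho = 0.714, exact permutation p = 0.0576). Without passages 27 and 28 the r of class I was 0.737 and that of class II 0.583 (exact permutation p of 0.106 and 0.222, n = 6).

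Between classes, class III minus class I changed by -0.307 ± 0.0826 points for each passage (SE, n = 8; r = -0.835, exact permutation p = 0.00952, adjusted p = 0.0486; rho = -0.833, exact permutation p = 0.0154). Class II minus class III had 0.281 ± 0.101 (r = 0.752, exact permutation p = 0.0369, adjusted p = 0.0645, n = 8; rho = 0.786, exact permutation p = 0.0279), and class II minus class I -0.0254 ± 0.118 (r = -0.0873, exact permutation p = 0.842, n = 8; rho = 0.119, exact permutation p = 0.793). Without passages 27 and 28 the r of class III was -0.853 (exact permutation p = 0.0264, n = 6) and that of class III minus class I -0.861 (exact permutation p = 0.0236, n = 6). Both class III calls lie close to the threshold. They were lost, with slopes of similar size, when passage 6, 8, 11, 13 or 27 was left out (-0.115 to -0.170 for class III, -0.254 to -0.329 for class III minus class I). They were also lost when 2 blocks whose CpG spacing recurs were left out (-0.0327 for class III, adjusted p = 0.563, and -0.190 for class III minus class I, adjusted p = 0.149, exact permutation tests), and with a minimum of 10 reads, which left 10 class III tiles, both slopes turned to 0.136 and 0.0991.

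**Figure D2:**
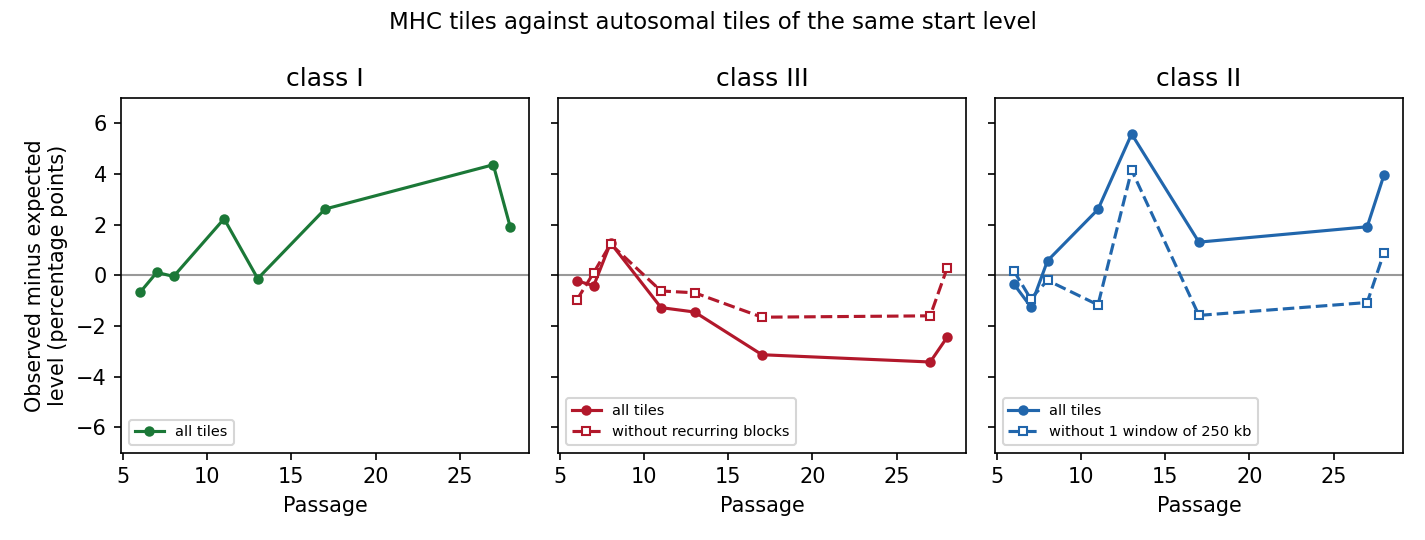
Observed minus expected methylation, in percentage points, against passage for tiles of class I, class III and class II, where the expectation is the mean of other autosomal tiles of the same start level. Filled points are all tiles, and open points leave out the recurring blocks (class III) or 1 window of 250000 bases (class II). Class III ends 2.45 points below its expectation at passage 28, and 0.276 above it without the blocks.

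Part of class III holds stretches that recur. Of the 187 MHC tiles with at least 5 kept CpGs, 5 recurred further along with the same CpG spacing, all in class III, and none with the mirrored spacing. A single tile recurred 12194 bases on (chr6:31784751-31784999 and chr6:31796945-31797193). The other 4 lay in a larger block between chr6:31960015-31979530 and its second copy at chr6:31992753-32012384, at distances of 32737 to 32854 bases. Only the CpG spacing was compared. How alike the sequences of the copies are, and how their reads were placed, was not tested, so the copies may not be independent. Both copies still entered the class III means, trends and counts as separate tiles, except where the blocks were left out. Across the larger block, from the first copy to the end of the second, 17 tiles that started at 20% or more had a late mean of 57.5% against 82.8% ± 2.76 (SD, n = 3) early, where equal-start tiles averaged 68.6% late and 82.2% early. The block was set apart after its values were seen, so this difference has no test. The remaining 52 class III tiles outside both blocks averaged 59.6% late and 75.2% ± 0.700 (SD, n = 3) early, close to the 60.2% and 75.1% of equal-start tiles.

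The copies of a pair differed by at most 11.3 points in any library. The pair with the largest fall had 96.3, 78.3, 87.3, 88.2, 86.7, 82.4, 26.3 and 25% in the first copy, and 89.1, 79.6, 84.9, 84.2, 87.4, 83.1, 17.8 and 25.8% in the second. It stayed near its early level up to passage 17 and stood far lower in both late libraries. A second pair (chr6:31960015-31960990 and chr6:31992753-31993728, 10 CpGs) stayed high, with 85.5% late against 89.8% ± 0.705 early in the first copy and 85.8% late against 89.99% ± 2.60 early in the second (SD, n = 3). Another (chr6:31962235-31962515 and chr6:31994973-31995253, 5 CpGs), close by, was already at 37.0% in the first copy and 37.1% in the second at passage 17. The mean gap between the copies of a pair was between 2.42 and 5.08 points.

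**Figure D3:**
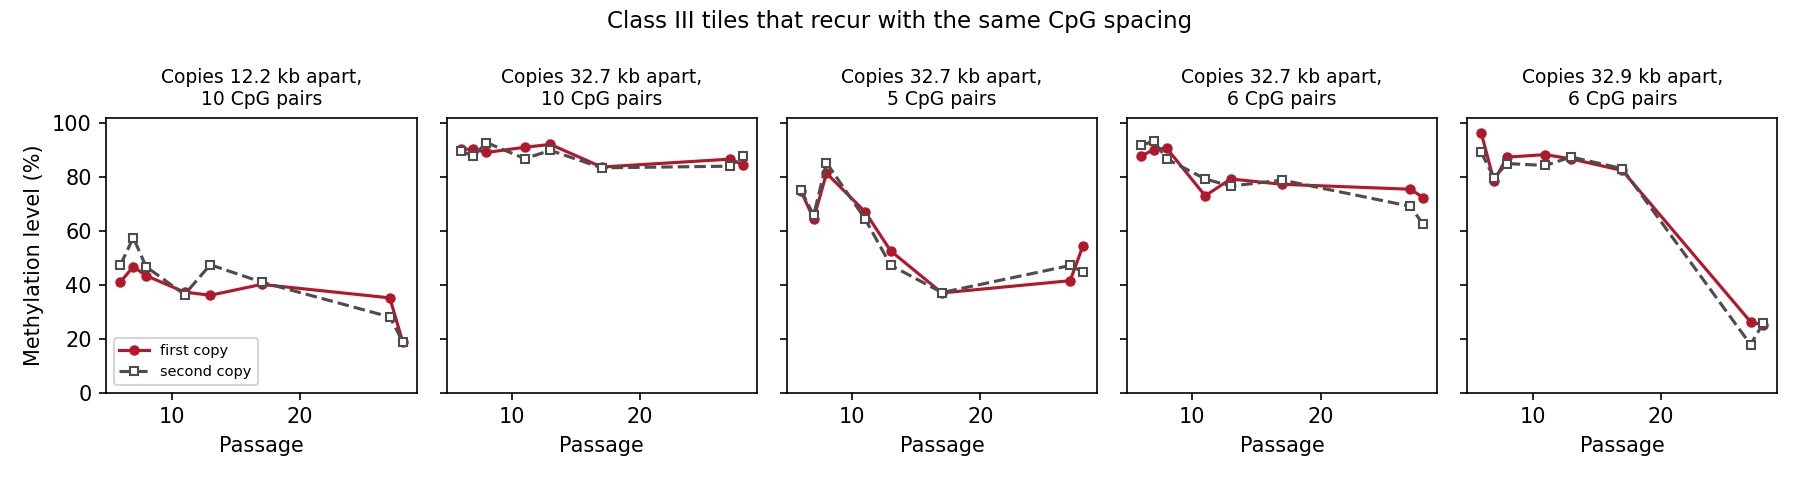
Methylation in percent against passage in the 5 pairs of class III stretches with the same CpG spacing, first copy filled and second copy open. The copies of each pair lie within 11.3 points of each other in every library, and the pairs differ: 1 stays between 83.3 and 92.7% in both copies, and another drops only after passage 17.

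Single tiles were tested for a trend with passage. To be called, a tile needed an adjusted p under 0.05 over all 78386 tested autosomal tiles with a fitted change of at least 10 points between passages 6 and 28. In the MHC 75 of 232 tested tiles were called as losses, 32.3%, against 34% of the autosomal tiles tested. The median fall of the 75 was 23.9 fitted points, and 10 fell by 50 or more. Among the 26538 called losses elsewhere the median fall was larger, at 31.0 points, and 4322 fell by 50 or more. No MHC tile was called as a gain by this quasi-binomial fit, against 0.166% of autosomal tiles, nor by limma on logit levels. In the quasi-binomial fit 96 falls and 2 rises among the 232 MHC tiles had an unadjusted p under 0.05. Elsewhere 33903 of 78154 tested tiles had one, in either direction. Another 115 tiles had too few reads of one state, 114 of them with a mean under 5%.

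By class, 20 of 88 tested tiles were called as losses in class I (22.7%), 39 of 92 in class III (42.4%) and 16 of 52 in class II (30.8%), against the same 34%. On chromosome 6 outside the MHC 24.5% were called. In the larger recurring block of class III 13 of 18 tested tiles were called, and outside both blocks 24 of 71 (33.8%). By start level, the MHC counts were 21 of 40 tiles starting at 20 to under 60% (background 62.1%), 20 of 48 at 60 to under 80% (background 36.5%), 10 of 43 at 80 to under 90% (background 29.1%) and 12 of 54 at 90% or more (background 20.9%). Class III had 11 of 16 called at 60 to under 80%, where class I had 4 of 18.

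**Figure D4:**
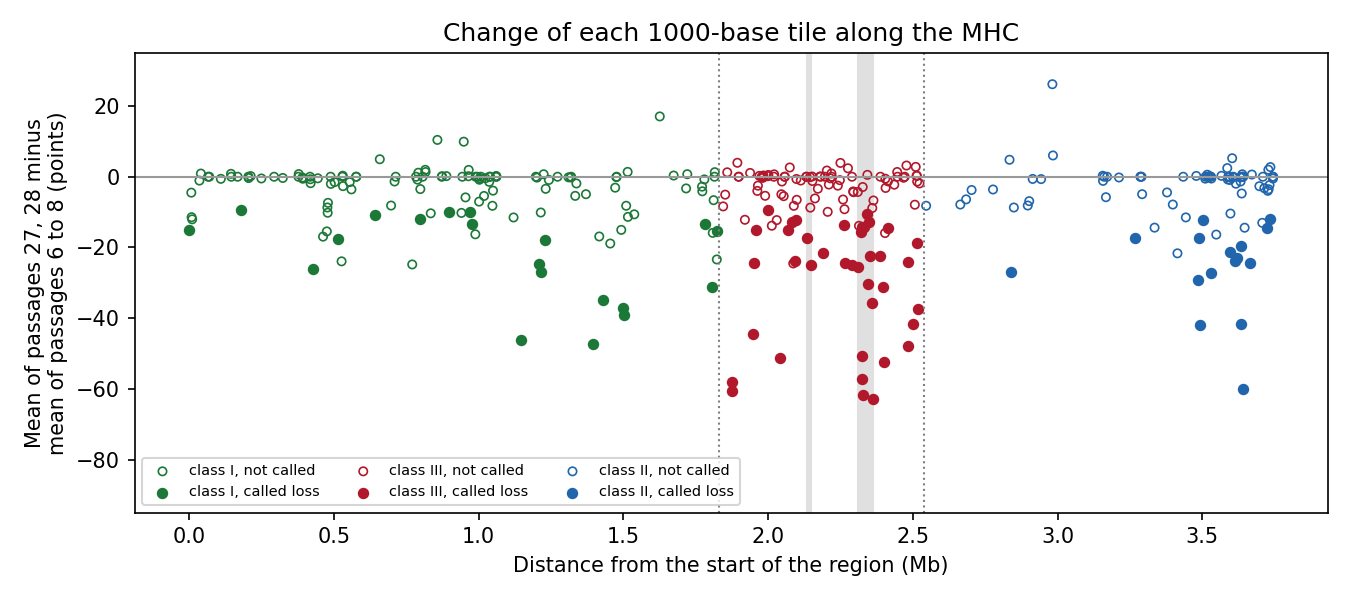
Change of each MHC tile (mean of passages 27 and 28 minus mean of passages 6 to 8, in percentage points) against its distance from the start of the region in Mb. Filled points are called losses, dotted lines the class borders and grey bands the recurring blocks. Falls past 50 points gather in class III, with 1 in class II and none in class I, and no rise is called.

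Distances given for tiles are to placed promoters only, so genes without one may lie nearer. By late minus early mean, the largest fall in class I was at chr6:31046001-31047000 (3 CpGs), between the placed promoters of GTF2H4 and CCHCR1. It had 79.0, 78.6, 73.5, 57.1, 70.8, 54.3, 28.9 and 30.8% at passages 6, 7, 8, 11, 13, 17, 27 and 28, a late mean of 29.9% against 77.0% ± 3.05 (SD, n = 3) early (adjusted p = 5.38e-05, limma's moderated dispersion). Both late libraries lay far below every earlier one. The tile at chr6:30796001-30797000 (3 CpGs), 55.3 kb before DDR1, which encodes a collagen receptor, fell earlier. It had 58.5, 56.2, 62.9, 65.9, 47.2, 18.8, 15.6 and 10.3%, a late mean of 12.9% against 59.2% ± 3.43 (SD, n = 3) early (adjusted p = 3.43e-05, limma's moderated dispersion), and by the fitted change its fall was the larger of the pair (-51.1 against -49.4 points). The tile at chr6:31153001-31154000 (4 CpGs) had 9.74% late and 48.9% ± 11.4 (SD, n = 3) early (adjusted p = 0.00262, limma's moderated dispersion), was at 0% of 70 reads at passage 17 (up to 4.29% allowed), and lost its call with limma on logit levels.

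The best kept class I tiles (5 or more CpGs, early mean of 80% or above) were chosen for their high late level, which leaves no room for a large fall. At chr6:30309001-30310000, 2.93 kb before the promoter of RPP21, a subunit of ribonuclease P, the late mean was 97.8% and the early mean 92.9% ± 3.21. At chr6:30466001-30467000 the means were 97.8% late and 95.8% ± 1.52 early, and at chr6:30961001-30962000 they were 95.4% late and 95.6% ± 2.60 early (SD, n = 3 each).

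In class III the largest falls by the same measure were the copies at chr6:32012001-32013000 and chr6:31979001-31980000 described above, with late means of 21.8% and 25.6% against 84.5% ± 4.76 and 87.3% ± 9.01 early (SD, n = 3; adjusted p of 4.72e-06 and 4.56e-06, limma's moderated dispersion). The next, outside the copies, was chr6:31525001-31526000 (4 CpGs), 62.5 kb before the next placed promoter, that of PRRC2A. It had 68.3, 65.5, 55.6, 56.3, 36.8, 57.7, 0 (of 53 reads, which allow up to 5.66%) and 4.76%, a late mean of 2.38% against 63.1% ± 6.68 (SD, n = 3) early (adjusted p = 3.27e-05, limma's moderated dispersion). The adjoining tile at chr6:31526001-31527000 had 1.79% late against 59.8% ± 5.89 (SD, n = 3) early, and it was named after its values were seen.

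The best kept class III tiles were chr6:31900001-31901000, 34.4 kb past the promoter of C2, with 94.8% late and 90.9% ± 6.73 early, chr6:31822001-31823000, 7.60 kb before that of NEU1, which encodes a lysosomal sialidase, with 93.1% late and 96.5% ± 0.898 early, and chr6:31502001-31503000 with 92.1% late and 97.1% ± 2.66 early (SD, n = 3 each).

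In class II the largest such fall was at chr6:33292001-33293000 (3 CpGs), 25.3 kb past the last placed promoter before it, that of RGL2. It had 92.6, 74.4, 51.3, 36.8, 46.7, 13.0, 21.4 and 4%, a late mean of 12.7% against 72.7% ± 20.7 (SD, n = 3) early (adjusted p = 0.000798, limma's moderated dispersion). It declined within the early libraries already, and its reads numbered 19 to 45 a library. The tile at chr6:33141001-33142000 had 24.1% late and 66.1% ± 14.9 (SD, n = 3) early (adjusted p = 0.0150, limma's moderated dispersion), still stood at 68.9% at passage 17, and lost its call without passage 27 or 28. The tile at chr6:33283001-33284000 had 5.54% late and 47.2% ± 6.11 (SD, n = 3) early (adjusted p = 0.000199, limma's moderated dispersion). The best kept were chr6:32353001-32354000 with 89.5% late and 93.3% ± 0.613 early, chr6:32499001-32500000 with 84.6% late and 93.3% ± 6.78 early, and chr6:33093001-33094000 with 73.6% late and 85.1% ± 6.56 early (SD, n = 3 each).

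**Figure D5:**
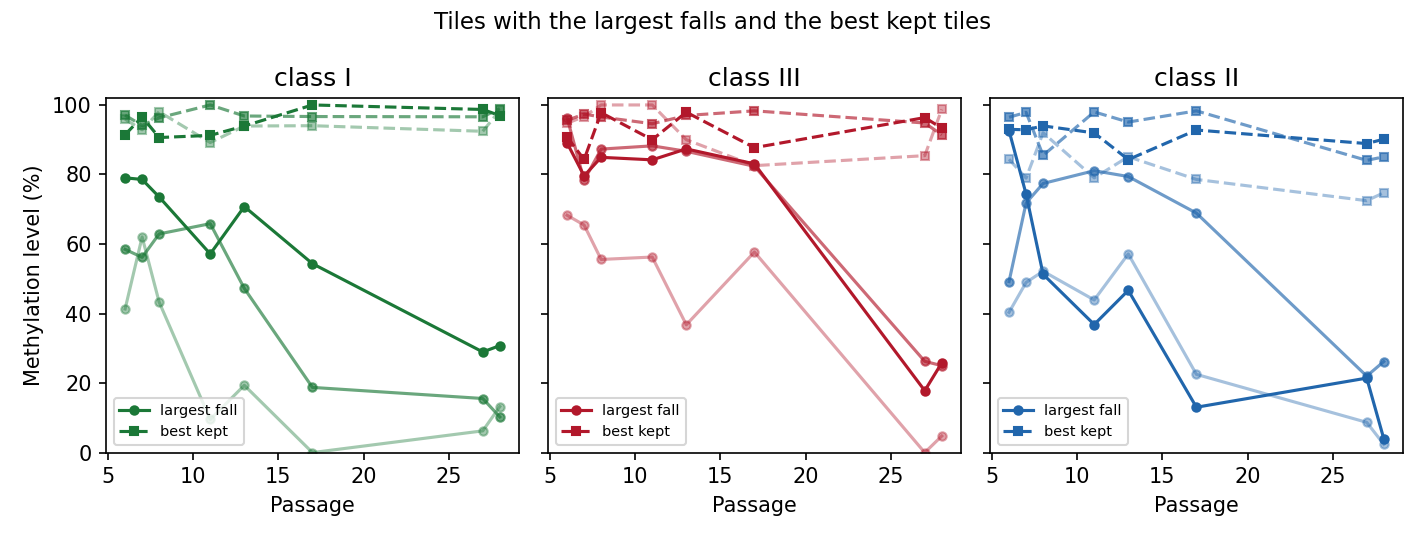
Methylation in percent against passage for the 3 called tiles with the largest fall (circles, solid lines) and the 3 best kept tiles (squares, dashed lines) of each class, 1 point per library. The 2 class III lines that drop together between passages 17 and 27 are the recurring copies.

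Along the region, falls were uneven. Of the 15 consecutive windows of 250000 bases, the one farthest above its expectation, chr6:32400001-32650000 in class II, had 10 tiles, all starting at 20% or more. They had 62.3, 61.9, 66.4, 75.003, 69.6, 67.4, 61.2 and 62.2% at passages 6 to 28, a late mean of 61.7% against 63.5% ± 2.47 (SD, n = 3) early, where equal-start tiles had 48.4% late and 63.9% early. Of its 10 tested tiles 1 was called as a loss, against 34% of the autosomal tiles tested. It lay at chr6:32489001-32490000 (13.3% late, 40.1% ± 3.09 early, SD, n = 3). The window was singled out after its values were seen, so this difference has no test. Its tile at chr6:32632001-32633000 had 23.3, 0, 48.0, 100, 81.5, 56.3, 54.2 and 45.7%, with no steady direction. Without the window the class II difference from its expectation was -0.00145 points per passage, against 0.132 with it.

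At the other extreme, chr6:31900001-32150000, which holds the larger recurring block, had 33 such tiles at 56.4% late and 77.3% early, a fall 6.27 points larger than in equal-start tiles, and 22 losses among 40 tested tiles, against 34% of the autosomal tiles tested. In class I, chr6:30400001-30650000 (15 tiles) had 76.8% late and 81.8% early, a fall 8.51 points smaller than in equal-start tiles. By this measure, windows wholly in class I ranged from -1.73 points (chr6:30900001-31150000, 11 tiles) to 9.38 points (chr6:31150001-31400000, 5 tiles). These windows too were picked by their values, so their differences have no test.

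The tiles of a class varied widely about the expectation. Of the 186 MHC tiles 113 were above it late and 73 below, with a standard deviation of 14.4 points over tiles. That is 60.8% above, against 58.8% of the 70081 other autosomal tiles set against the mean of their own start bin. In class I 49 of 70 tiles were above, in class III 37 of 72 and in class II 27 of 44. The median tile of class III was 0.441 points above, against 3.10 points for the median of the other autosomal tiles, and the class mean was -2.94 points late.

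Some high tiles stayed high. Among the MHC tiles, 78 reached 80% in every early library, and 47 of these did so in both late libraries, 60.3% (Wilson 95% interval 49.2 to 70.4%), against 16110 of 28291 other autosomal tiles (56.9%). The interval takes tiles as independent, although all come from the same libraries, so it does not measure spread between cultures. The counts were 20 of 31 in class I, 15 of 31 in class III and 12 of 16 in class II, and no test compared the classes.

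Losses differed in timing. For the 75 called tiles the median share of the late fall reached by passage 17 was 45.6%, against 41.1% for called tiles elsewhere. In 21 of them (28%) less than 25% of the fall had occurred by then, as in the copies at chr6:31979001-31980000 and chr6:32012001-32013000, against 34.9% of called tiles elsewhere. In another 21 (28%) at least 75% had, as at chr6:31153001-31154000, against 22.2% elsewhere. The rest lay between.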

How the data were processed

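Methylation was measured by RRBS in 8 libraries, 1 at each passage, grouped by the passage in the labels. Each deposited file lists CpG positions of hg19, per the submitters' processing notes, with methylated and total reads. The deposited score is 1000 times the methylated share of these reads and was not used. How the authors aligned reads, called methylation and treated duplicates is not given in the sources used here, so intervals cover counting error only.

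On the autosomes, CpGs read 5 or more times in each library entered, and their reads were added up in 1000-base tiles holding 3 or more of them. Means over CpGs weight each CpG equally. Trends on passage are least squares slopes with a two-sided exact permutation test of Pearson's r over the 40320 possible orders of the 8 libraries, which allow no p under 2.5e-05, and were adjusted by Benjamini-Hochberg over 5 trends or 7 differences. For tiles, reads were regressed on passage in a quasi-binomial logistic fit, with the dispersion moderated by squeezeVar of limma 3.58.1 (R 4.3.3) and not under 1, and an F test adjusted over all 78386 tiles with 10 or more reads of each state. Both steps were also run on simulated reads. For the start-matched differences these held counting error only, not the wider scatter of real tiles. Late means average passages 27 and 28, and early means passages 6 to 8.

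By rule, the tiles named are the 3 called falls that were largest by late minus early mean, up to 3 called gains and the 3 best kept tiles of each class. The region, the gene lists and the tests were chosen with earlier results of these data known. Genes had been planned only for an hg19 annotation. The placing of promoters was added after the files were seen. A promoter was placed where at least 8 of its CpGs fell on listed positions, at most 1 listed CpG was off the pattern and no other place on chromosome 6 came within 3 CpGs. Of 1212 promoters searched on chromosome 6, 664 were placed, while 3 mirrored spacings were. All 58 placed in the region share the same distance from their table position, which served as a check. Alternatives were other read and CpG minimums, thinned reads, other matching, other fits and the omission of each library.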

Additional observations from a re-analysis of the deposited data

Results flagged for a closer look

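The trend of class III tiles relative to other autosomal tiles of equal start was singled out because the test of that difference passed the threshold, at -0.149 points per passage (exact permutation p = 0.0139, adjusted p = 0.0486, n = 8). The same holds for class III relative to class I, at -0.307 points per passage (exact permutation p = 0.00952, adjusted p = 0.0486, n = 8). Without the recurring blocks the values were -0.0327 and -0.190, and neither passed.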

How the results depend on the processing

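The falling means of the MHC and class III passed the test in each of the 16 alternatives run for them. At 20 reads the means of class I (-0.0307 points per passage) and class II (-0.474) missed the threshold. Class III relative to other autosomal tiles of equal start missed it at -0.0327 without the recurring blocks, -0.301 over passages 6 to 17, -0.0976 without tiles near class borders, -0.0113 in tiles of at least 5 CpGs and -0.162 with the start set at passage 6, and turned to 0.136 at 10 reads. Relative to class I it missed it at -0.190 without the blocks, -0.544 over passages 6 to 17, -0.282 without border tiles and -0.332 with the start at passage 6, and turned to 0.0991 at 10 reads. On omission of single libraries these were -0.193 to -0.115 and -0.420 to -0.254, each missing the threshold without passage 6, 8, 11, 13 or 27.

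Class I at equal start passed at 0.235 with thinned reads, 0.166 with wider start bins, 0.0848 over all tiles, 0.273 in tiles of at least 5 CpGs and 1.66 per doubling of passage, and was 0.113 to 0.227 on omission of single libraries, passing without passage 28. Tiles of at least 5 CpGs also gave 0.143 for the MHC and 0.294 for class II. Class II relative to class III passed at 0.305 in those tiles, 0.305 with a start at 60% or more, 0.142 over all tiles and 3.196 per doubling. The MHC passed at -0.0925 against chromosome 6. The cause was not tested for any of these.

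Tiles called as losses came to 9 of 31 at a minimum of 10 reads, to 30 of 104 where tiles had 5 or more CpGs and to 47 with a minimum of 20 points. On omission of single libraries they were 47 (without passage 28) to 76, and gains 0 to 1. With limma on logit levels there were 54 losses. Of the values for named tiles, 276 kept their call or its absence, 3 lost a call and 1 newly passed (chr6:32499001-32500000 without passage 8). The blocks and the class II window were left out after seeing the data. At 20 reads no MHC tile started at 20% or more, so tiles were not run there. No paired analysis was possible because there is 1 library a passage and nothing to pair.

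With a median of 11 to 24 reads per CpG and 1 library a passage, small changes in single tiles could not be detected.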
